A study of Mus musculus with 16 samples.

Results

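The Sm core is the ring of small proteins that encircles a uridine-rich stretch of the spliceosomal small nuclear RNAs. Its genes were followed here through 4 groups of Neuro 2a cells, a mouse neuroblastoma cell line. The members were chosen by platform gene symbol from 8 named genes: Snrpd1, Snrpd2, Snrpe, Snrpf, Snrpg, Snrpd3, Snrpb and Snrpn. Of these, 7 genes had a probe, 10 probes in all among the 25697 on the array. Probes were kept when 1 group or more had all 4 of its arrays detected at a p-value under 0.01, and 9 member probes were among the 10794 kept. All 9 were detected on all 16 arrays, so none was kept only through a group in which it was high. The single Snrpe probe was detected on 0 of 16 arrays, with detection p-values from 0.268 to 0.892, and no level is given for Snrpe. No probe for Snrpf was found by symbol or by gene identifier. Snrpb, Snrpd1 and Snrpn each had 2 probes, numbered 1 and 2 here, and Snrpd2, Snrpd3 and Snrpg had 1 each.

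The Sm proteins are made in the cytoplasm, loaded onto small nuclear RNA by the SMN complex, and remain in the U1, U2, U4 and U5 particles that remove introns. SmD1 pairs with SmD2, SmD3 pairs with SmB, and SmE, SmF and SmG form another unit before the ring closes. Snrpn encodes SmN, a protein nearly identical to SmB that takes its place in neurons, and it is transcribed from the paternal allele of an imprinted region.

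The arrays measured RNA that was labelled at abasic sites with ARP, the aldehyde reactive probe, which carries biotin and reacts with the open sugar left when a base is lost. In Ox-ARP, RNA of hydrogen peroxide-treated cells was labelled and then captured on streptavidin beads, and in Basal-ARP the same was done with RNA of untreated cells. In Ox-total and Basal-total, labelled RNA of treated and of untreated cells was hybridised without capture. Each group had 4 arrays, the labels give the strain as C57BL/6J for all, and neither the dose nor the duration of the peroxide exposure is given in the sources used here. All 4 groups carried ARP and none was captured without it, so retention on the beads without the label and retention through it cannot be told apart. The labels do not say that replicates came from separate cultures, so the p-values below measure only the spread between these arrays. Since these are bulk RNA samples, fewer cells of a kind and less RNA per cell cannot be told apart either.

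Over the whole series, mean scanner intensity per array ran from 328 to 533, and 10351 to 11068 probes were detected per array. The lowest correlation between any 2 arrays was 0.948, and no array pair held identical values. Basal-ARP replicate 3 correlated least with the other arrays of its group (mean r = 0.982). The arrays lay on 2 chips of 8, each chip with replicates 1 and 2 or replicates 3 and 4 of all 4 groups. Within a chip each group held its own positions, and the effects of position and of group cannot be told apart. Among 18 neuroblastoma markers 12 passed, including Phox2a, Hand2, Isl1, Dbh and Stmn2. Tubb3, Mycn, Nefl and Nefm did not pass. The 3 macrophage and blood markers with a probe, Ptprc, Lyz2 and Hba-a1, were detected on 0 arrays. Of the epithelium markers, Krt8 was detected on 16 arrays at log2 group means of 5.83 to 6.10, Cdh1 on 5 and Krt18 on 0. Of the fibroblast markers, Dcn was detected on 12 arrays and Pdgfra on 8.

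Captured RNA held less of the messages of the SmD1 and SmD2 pair and of SmG than total RNA did, with and without peroxide, whereas for SmD3 and SmB the captured and total arrays overlapped. Snrpg was 0.334 of its Ox-total level in Ox-ARP and 0.444 of its Basal-total level in Basal-ARP. Snrpd2 followed with 0.446 and 0.528, and the Snrpd1 probes with 0.492 to 0.556. These folds are relative: the arrays were brought to a common distribution, and nothing here measures how much RNA came off the beads. The family was proposed with capture differences of Snrpg and Snrpd1 already known, so the differences between captured and total RNA are descriptions without a test, and nothing is read from how many passed a threshold.

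Snrpg encodes SmG, part of the unit with SmE and SmF. Its log2 normalized intensity was 10.05, 9.93, 10.45 and 10.17 in Ox-ARP replicates 1 to 4, against 11.81, 11.65, 11.79 and 11.69 in Ox-total. It was 10.44, 10.41, 10.52 and 10.50 in Basal-ARP, against 11.63, 11.65, 11.64 and 11.65 in Basal-total. All 8 captured arrays were below all 8 total arrays, and the lowest 2 values belonged to Ox-ARP replicates 1 and 2. From low to high the group means ran Ox-ARP, Basal-ARP, Basal-total and Ox-total, and each neighbouring pair overlapped except Basal-ARP and Basal-total. The difference was -1.58 ± 0.10 (SE) with peroxide and -1.17 ± 0.10 without. These lay at the 0.0926 and 0.565 percentile of all probes kept. Within chips 1 and 2 the difference was -1.73 and -1.43 with peroxide and -1.21 and -1.13 without. The scanner's own values, before any normalization, lay between 881.5 and 1569.9 in Ox-ARP, against 3111.8 to 4271.2 in Ox-total. In Basal-ARP they lay between 1046.9 and 1823.8, against 2830.8 to 4093.1 in Basal-total.

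Snrpd1 and Snrpd2 encode SmD1 and SmD2, which pair with each other. Snrpd1 probe 1 gave 11.10, 10.68, 11.31 and 11.16 in Ox-ARP, against 12.03, 11.90, 12.03 and 11.89 in Ox-total. It gave 11.11, 11.08, 11.31 and 11.17 in Basal-ARP, against 11.87, 12.11, 12.02 and 12.19 in Basal-total. The captured arrays were all lower than the total arrays, and the captured groups overlapped each other. The second Snrpd1 probe showed the same separation, with 10.97, 10.63, 10.85 and 10.97 in Ox-ARP, against 11.98, 11.88, 11.82 and 11.83 in Ox-total. Its Basal-ARP values were 10.999, 11.02, 10.94 and 10.69, against 11.69, 11.86, 11.65 and 11.83 in Basal-total. The 2 probes differed little in the size of the capture difference, at -0.90 ± 0.12 and -1.02 ± 0.10 with peroxide and -0.88 ± 0.12 and -0.85 ± 0.10 without.

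Snrpd2 gave 11.997, 11.61, 11.68 and 11.81 in Ox-ARP, against 13.08, 13.06, 12.83 and 12.79 in Ox-total. In Basal-ARP it gave 12.30, 12.15, 11.59 and 11.99, against 12.88, 13.15, 12.67 and 13.02 in Basal-total. Again no captured array reached any total array, though Basal-ARP replicate 3 lay well below the other 3 of its group. The difference was -1.17 ± 0.14 with peroxide and -0.92 ± 0.14 without, and by chip -1.26 and -1.07 with peroxide and -0.79 and -1.05 without.

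**Figure D1:**
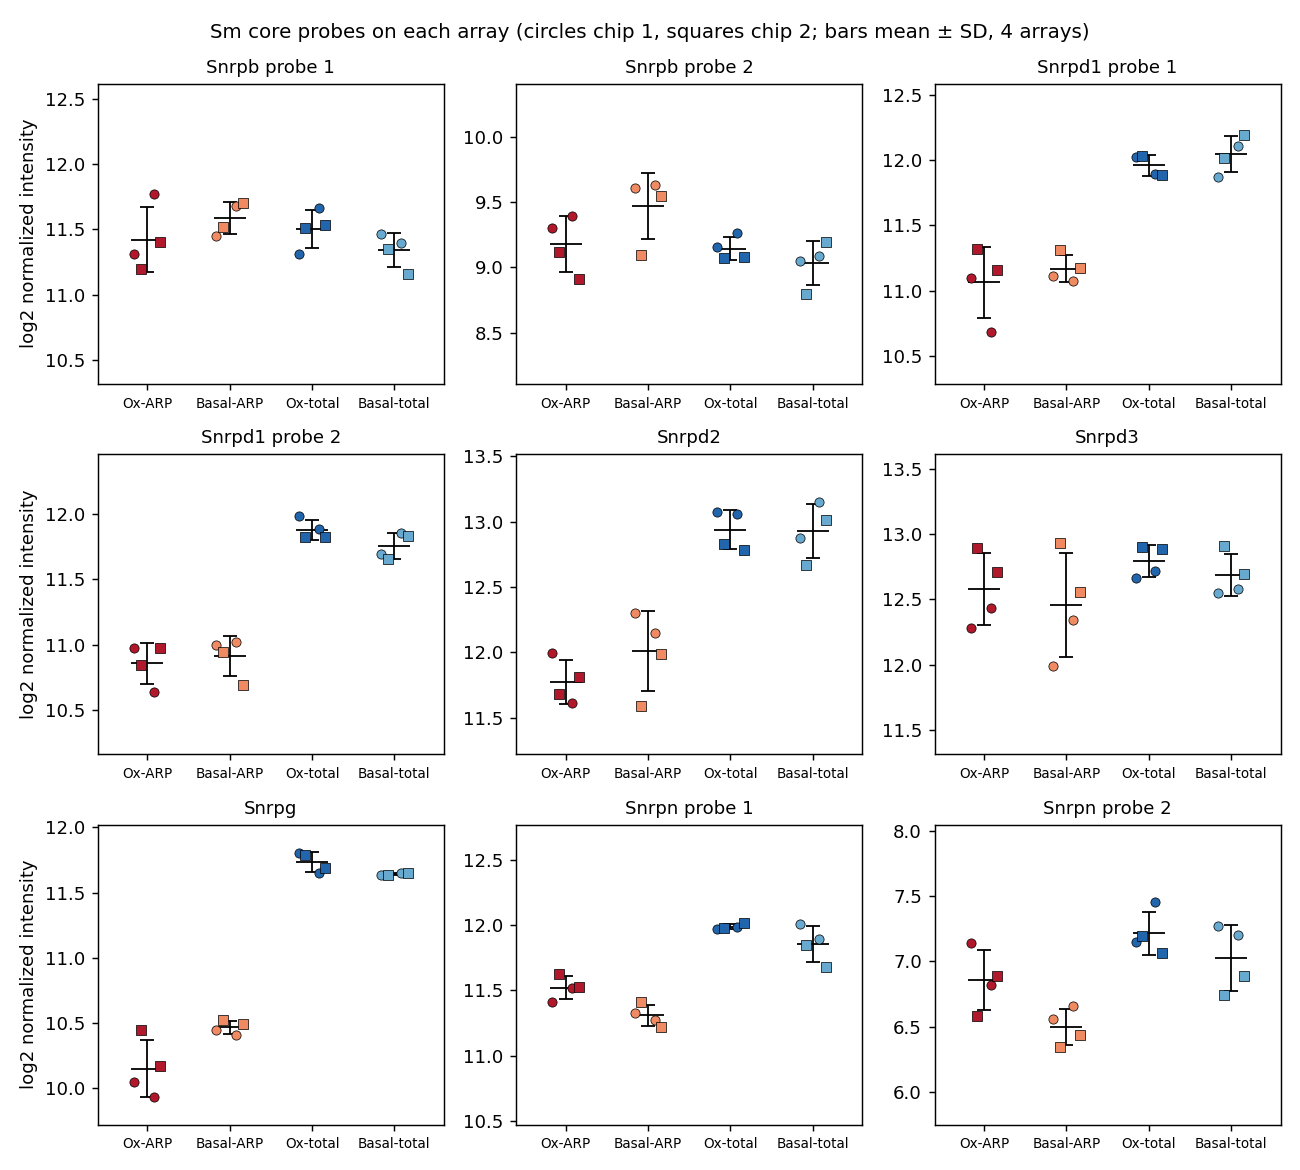
Log2 normalized intensity (y axis) of the 9 Sm core probes on every array, by group (x axis: Ox-ARP, Basal-ARP, Ox-total, Basal-total). Circles are arrays of chip 1 and squares arrays of chip 2, bars are mean ± SD of 4 arrays, and every panel spans the same height. The captured groups lie below the total groups without overlap for Snrpg, Snrpd2 and both Snrpd1 probes, and overlap them for Snrpb and Snrpd3.

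Snrpd3 and Snrpb encode the pair on the other side of the ring. Snrpd3 gave 12.28, 12.43, 12.89 and 12.71 in Ox-ARP, against 12.66, 12.71, 12.90 and 12.89 in Ox-total. It gave 11.99, 12.34, 12.93 and 12.56 in Basal-ARP, against 12.55, 12.58, 12.91 and 12.70 in Basal-total. In each of the 4 groups replicates 3 and 4, on chip 2, were above replicates 1 and 2, on chip 1, and the captured and total groups overlapped. The captured array was the lower in 4 of 4 same-numbered pairs with peroxide and in 3 of 4 without. The capture difference was -0.21 ± 0.17 with peroxide and -0.23 ± 0.17 without. It was -0.33 on chip 1 and -0.10 on chip 2 with peroxide, and -0.40 and -0.06 without.

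Snrpb encodes SmB, the partner of SmD3. Probe 1 gave 11.31, 11.77, 11.20 and 11.41 in Ox-ARP, against 11.31, 11.66, 11.51 and 11.53 in Ox-total. It gave 11.45, 11.68, 11.52 and 11.70 in Basal-ARP, against 11.46, 11.39, 11.35 and 11.16 in Basal-total. With peroxide the captured and total arrays were interleaved, and without it 3 of 4 same-numbered captured arrays were the higher. The differences were -0.08 ± 0.12 with peroxide and 0.25 ± 0.12 without. With peroxide the direction differed by chip, at 0.06 on chip 1 and -0.22 on chip 2 for probe 1, and 0.14 and -0.06 for probe 2. Probe 2 differed by 0.04 ± 0.13 with peroxide and by 0.44 ± 0.13 without, and without peroxide its captured array was the higher in 4 of 4 same-numbered pairs while the groups overlapped. Snrpb was the one member whose 2 probes both had positive capture differences in untreated cells.

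Snrpn, the neuronal relative of Snrpb, lay between these groups of genes. Probe 1 gave 11.41, 11.52, 11.63 and 11.53 in Ox-ARP, against 11.97, 11.99, 11.98 and 12.02 in Ox-total. It gave 11.33, 11.27, 11.41 and 11.22 in Basal-ARP, against 12.01, 11.89, 11.85 and 11.68 in Basal-total. Captured arrays were below total arrays throughout, by -0.47 ± 0.08 with peroxide and -0.55 ± 0.08 without. Probe 2 was dim, and its fold changes are drawn towards 0 by the background offset. It gave 7.14, 6.82, 6.58 and 6.89 in Ox-ARP, against 7.15, 7.45, 7.19 and 7.06 in Ox-total. It gave 6.55, 6.66, 6.34 and 6.43 in Basal-ARP, against 7.27, 7.20, 6.74 and 6.89 in Basal-total. The captured and total groups of probe 2 overlapped with peroxide and not without, with differences of -0.36 ± 0.13 and -0.53 ± 0.13. Snrpb and Snrpn are closely related in sequence, and Snrpn shares its transcript with Snurf; probe sequences were not used here, so cross-hybridisation between them was not tested.

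By groups that do not overlap, 5 of 9 member probes were lower in Ox-ARP than in Ox-total (13.5% of all probes kept), and 6 of 9 were lower in Basal-ARP than in Basal-total (12.8%). By limma's moderated test, with Benjamini-Hochberg adjustment over all probes kept and a threshold of 0.05, those 5 were called lower with peroxide (13.4% of all probes) and 0 higher (13.6%). Without peroxide 6 were called lower (15.2%) and 1, Snrpb probe 2, higher (16.7%). The family was proposed with capture differences of Snrpg and Snrpd1 known, so these counts are descriptions. Nothing is read from their distance to the shares. The share of all calls that were higher was 50.3% with peroxide and 52.3% without. It was 57.3% and 38.5% when arrays were scaled to a common median, and 32% and 11.9% with no normalization between arrays. The median member difference was -0.47 with peroxide, against 0.03 over all probes, and -0.55 without, against 0.03.

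**Figure D2:**
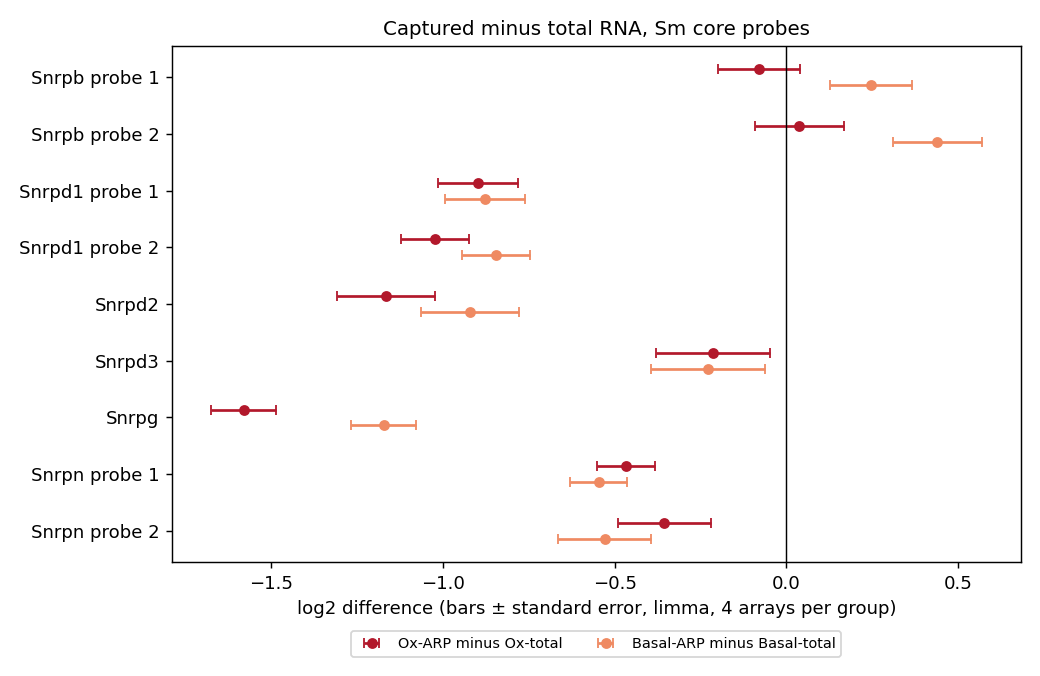
Captured minus total RNA (x axis, log2 difference) for the 9 Sm core probes (y axis), in treated cells (Ox-ARP minus Ox-total) and untreated cells (Basal-ARP minus Basal-total). Points are estimates and bars ± 1 standard error from the limma model with 4 arrays per group; Snrpg is farthest to the left in both, and Snrpb is nearest to or right of 0.

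The order of the members did not rest on the normalization between arrays. Taking each probe over Snrpb probe 1 on the same array cancels any factor common to the array, and the brightest probe stood for each gene. The log2 ratio of Snrpg over Snrpb averaged -1.25 ± 0.41 in Ox-ARP and 0.23 ± 0.22 in Ox-total (SD, n = 4 each). It averaged -1.09 ± 0.14 in Basal-ARP and 0.31 ± 0.14 in Basal-total. The captured and total ranges did not meet in either condition, the differences being -1.48 and -1.40. For Snrpd2 over Snrpb the differences were -1.18 with peroxide and -1.21 without, and for Snrpd1 -0.82 and -1.14. They were smaller for Snrpn, at -0.40 and -0.81, and for Snrpd3, at -0.25 and -0.55. A ratio within an array shows that 2 probes changed unequally and not which one changed.

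**Figure D3:**
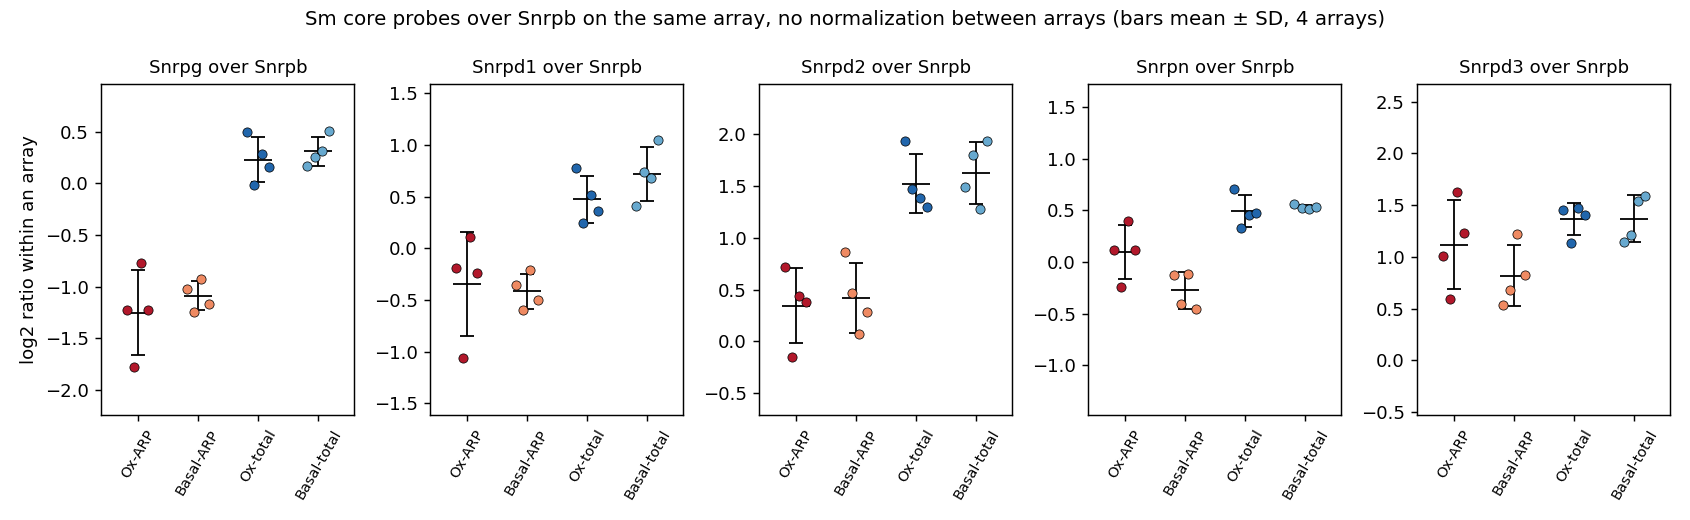
Log2 ratio of 5 Sm core genes over Snrpb on the same array (y axis), by group (x axis: Ox-ARP, Basal-ARP, Ox-total, Basal-total), from background-corrected values with no normalization between arrays. Points are arrays and bars mean ± SD of 4; each panel spans the same height. For Snrpg, Snrpd1 and Snrpd2 the captured arrays lie below the total arrays, and for Snrpd3 they overlap.

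Between peroxide-treated and untreated cells 1 of the 9 member probes passed the test in captured RNA, below the share over all probes, and 0 passed in total RNA. That probe, Snrpg, was lower in Ox-ARP than in Basal-ARP by 19.8%, a log2 difference of -0.32 ± 0.10 (95% interval -0.52 to -0.12, adjusted p = 0.0193, limma). It was lower in 4 of 4 same-numbered pairs, and the groups overlapped because Ox-ARP replicate 3, at 10.45, was above 2 Basal-ARP arrays. Among all probes 15.4% were called lower and 13.8% higher in this comparison, and 1 call among 9 is no excess over them. The family was proposed with capture differences of Snrpg and Snrpd1 known, and those use these same captured arrays. The p-values of Snrpg and Snrpd1 in captured RNA are therefore not independent of that choice, and they are given as descriptions. With chip as a block 4 of 9 passed, and 4077 of all 10794 probes did. Of those 4 members, Snrpg and Snrpb probe 2 were lower and both Snrpn probes higher. Without Basal-ARP replicate 3 it was 3 of 9, against 2579 of all 10794. Snrpb probe 2 (adjusted p = 0.0173, limma) and Snrpd2 (adjusted p = 0.0449) were then also lower. The share of all calls that were higher was 47.4%, against 74.2% with median scaling and 80.8% with no normalization.

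The Snrpg call in captured RNA depended on choices. With median scaling the difference was -0.16 (adjusted p = 0.355) and with no normalization -0.11 (adjusted p = 0.799), and the median of all probes moved to 0.13 and 0.18, against 0.02 after quantile normalization. Relative to that median Snrpg lay at -0.29 in both settings, against -0.34 after quantile normalization. Median scaling shifts all probes of an array alike, so those 2 settings give the same relative value by construction. It was also lost without Ox-ARP replicate 1 (adjusted p = 0.0566) or without Ox-ARP replicate 2 (adjusted p = 0.0721). By chip the difference was -0.44 on chip 1 and -0.20 on chip 2, and with chip as a block its adjusted p was 0.0087 (limma). One fibroblast marker, Dcn, averaged 5.94 in Ox-ARP and 5.50 in Basal-ARP and was detected on 4 and 2 of their arrays, so no test is drawn from it. The summed intensity of the 5 fibroblast markers ran from 164 to 190 in Ox-ARP and from 155 to 190 in Basal-ARP. The collagen genes Col1a1, Col1a2 and Col3a1 were detected on 0 arrays, and Pdgfra on 2 Ox-ARP and 3 Basal-ARP arrays. The part of such cells in the Snrpg difference was not tested.

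Snrpn differed the other way without passing the test. Probe 1 was higher in Ox-ARP than in Basal-ARP in 4 of 4 same-numbered pairs and the groups did not overlap, which held for 13.2% of all probes. Its difference was 0.21 ± 0.08 (95% interval 0.04 to 0.39, adjusted p = 0.0661, limma), and it was 0.16 on chip 1 and 0.26 on chip 2. Probe 2 had 0.36 ± 0.13 (95% interval 0.08 to 0.65, adjusted p = 0.0521, limma), also higher in 4 of 4 pairs. With chip as a block the adjusted p was 0.049 for probe 1 and 0.0089 for probe 2 (limma), and both also passed with median scaling. Median scaling moved the median of all probes to 0.13. Relative to that median probes 1 and 2 lay at 0.24 and 0.295, against 0.19 and 0.34 after quantile normalization. Neither passed with no normalization (adjusted p = 0.195 and 0.0554, limma) or on a single chip (adjusted p from 0.137 to 0.374). For Snrpd1, Snrpd2, Snrpd3 and Snrpb the differences in captured RNA ran from -0.29 to 0.12, with adjusted p-values from 0.105 to 0.705. Their intervals reach from -0.56 at the lowest to 0.47 at the highest, which leaves room for changes of that size.

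In total RNA the members differed by -0.09 to 0.19 between Ox-total and Basal-total. None passed limma's test (adjusted p from 0.639 to 0.983), which 0.241% of all probes did. An unadjusted p under 0.05 was reached by 0 of 9, against 10.1% of all probes. For Snrpg the difference was 0.09 ± 0.10, with a 95% interval from -0.11 to 0.29. The median member difference was 0.11, against 0.01 over all probes.

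**Figure D4:**
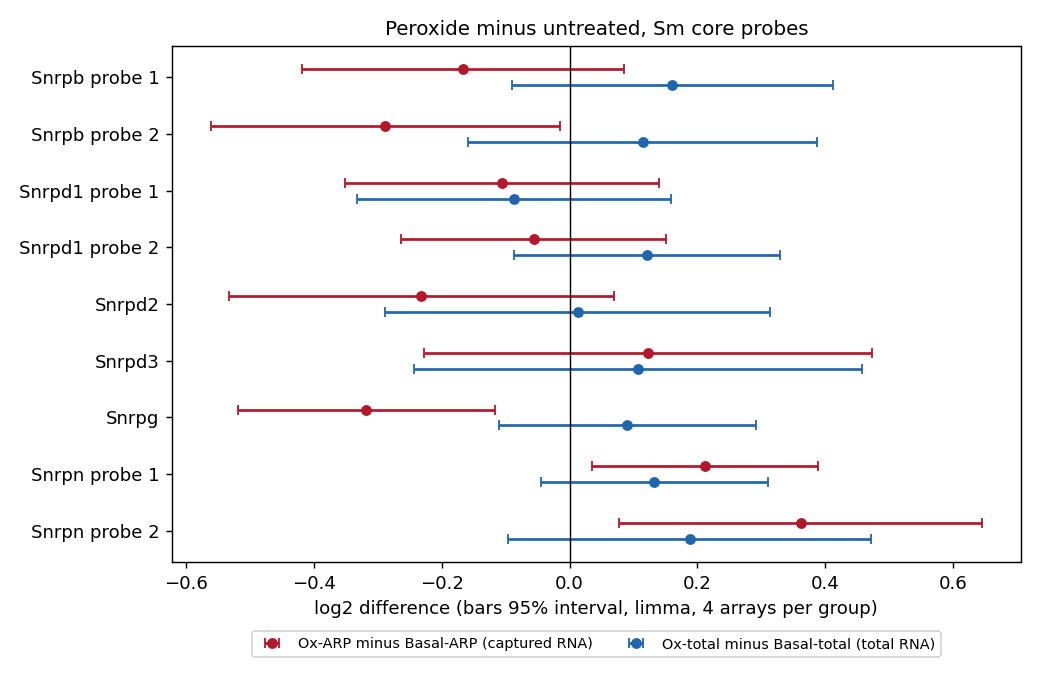
Peroxide minus untreated (x axis, log2 difference) for the 9 Sm core probes (y axis), in captured RNA (Ox-ARP minus Basal-ARP) and in total RNA (Ox-total minus Basal-total). Points are estimates and bars 95% intervals, not adjusted for the number of probes, from the limma model with 4 arrays per group. In captured RNA the intervals of Snrpg and Snrpb probe 2 lie below 0 and those of both Snrpn probes above 0. All intervals in total RNA include 0.

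Whether capture differed with peroxide was tested as the capture difference in treated cells minus that in untreated cells. Of the 9 member probes 0 passed (2.48% of all probes did), and 2, Snrpg and Snrpb probe 2, had an unadjusted p under 0.05, as did 18.9% of all probes. Snrpg came nearest, with -0.41 ± 0.13 (95% interval -0.69 to -0.12, adjusted p = 0.107, limma). With the replicate number as a block, 1 term shared by all 4 groups, its adjusted p was 0.0446 (limma). That block also ties same-numbered treated and untreated arrays, so it is not a pairing within each capture difference alone. With it 1 of 9 members passed, as did 1040 of all 10794 probes, against 268 without it. Snrpg also passed without Ox-ARP replicate 3, with -0.51 (adjusted p = 0.0269, limma). In the other 29 of 31 alternative settings it did not pass, with adjusted p up to 0.92. Its estimate was -0.52 on chip 1 and -0.29 on chip 2. Snrpb probe 2 had -0.40 ± 0.18 (adjusted p = 0.242), and the remaining members ran from -0.33 to 0.17. The comparisons share groups with one another, so their values for a member are not independent. For Snrpg and Snrpd1 this test uses the same arrays as the capture differences known when the family was proposed. Their p-values here are likewise descriptions.

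Over the 16 arrays Snrpg shared the group steps of the SmD1 and SmD2 messages. Pearson's r was 0.969 and 0.962 between Snrpg and the Snrpd1 probes and 0.923 between Snrpg and Snrpd2. The 2 Snrpd1 probes had r = 0.949, the 2 Snrpn probes 0.773 and the 2 Snrpb probes 0.479. These coefficients describe 16 arrays that share their 4 groups and 2 chips, and they include the step between captured and total arrays. After each group's mean was taken off, r was 0.81 and 0.18 between Snrpg and the Snrpd1 probes and -0.16 between Snrpg and Snrpd2, so the likeness of Snrpg to Snrpd2 and to Snrpd1 probe 2 lay in the group step. Among all other named genes the patterns most like that of Snrpg belonged to Uqcrh (r = 0.992) and Ndufs4 (0.99), subunits of respiratory complexes III and I, and to Mkks (0.984), a chaperonin-like protein. Those nearest Snrpd1 were Mkks (0.971), Ndufs4 (0.97) and Ndufa6 (0.962), another complex I subunit. Snrpd2 was nearest Tmem208 (0.985), Dtymk (0.98), the thymidylate kinase gene, and Mrpl53 (0.979), a mitochondrial ribosomal protein gene. Snrpd3 was nearest Ssbp1 (0.938), Pbdc1 (0.912) and Slc10a4l (0.9), and Snrpn was nearest Rpl23a (0.972), Dynlrb1 (0.963) and Jtb (0.961). Snrpb had no close companion, the nearest being Bhlhe40 (0.825), Fbxl14 (0.81) and the immediate early gene Fos (0.772).

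The genes around the Sm core were described from lists of the pathway. Of 14 genes that assemble the ring, including those of the SMN complex and the PRMT5 methylosome, 13 passed. Over all probes 13.6% were called higher and 13.4% lower between captured and total RNA with peroxide, and 16.7% and 15.2% without, and the counts of each list stand against these shares. Called genes were 1 higher and 3 lower in Ox-ARP against Ox-total, with a median of 0.00, and 0 higher and 3 lower in Basal-ARP against Basal-total, with a median of -0.08. With peroxide in captured RNA 1 of the 13 was called higher and 1 lower, where 13.8% and 15.4% of all probes were. Gemin2, the SMN partner that holds the Sm proteins, rose by 0.41 ± 0.14 (adjusted p = 0.0393, limma). Gemin4, another subunit of that complex, fell by 0.26 ± 0.08 (adjusted p = 0.0195). Their group means were 7.59 in Ox-ARP and 7.17 in Basal-ARP for Gemin2, and 9.29 and 9.54 for Gemin4. Smn1 itself did not pass, at -0.17 ± 0.09 (adjusted p = 0.168).

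The list of particle proteins outside the Sm ring included Snu13, which binds U4 RNA among others, and Txnl4a, a U5 protein. Of 21 listed genes 15 passed, with 0 higher and 5 lower in Ox-ARP against Ox-total (median -0.15; 13.6% and 13.4% of all probes) and 2 higher and 7 lower in Basal-ARP against Basal-total (median -0.21; 16.7% and 15.2%). One of those 2 higher genes, Prpf31, was detected on 4 Basal-ARP and 0 Basal-total arrays and was kept only through the group in which it was high, so its call is no support. Snu13 averaged 8.01 in Ox-ARP and 8.61 in Basal-ARP, and 9.15 in Ox-total and 9.12 in Basal-total. It fell by 0.60 ± 0.10 with peroxide in captured RNA (adjusted p = 0.000401, limma). Its capture difference was more negative with peroxide by -0.63 ± 0.14 (adjusted p = 0.0261, limma). Snu13 was the one pathway gene to pass that test, which 2.48% of all probes did. Txnl4a fell by 0.43 ± 0.12 in captured RNA (adjusted p = 0.0136, limma), and Snrnp25, of the minor spliceosome, rose by 0.51 (adjusted p = 0.0187). Among the 15 genes, 1 was called higher and 2 lower in that peroxide comparison, where 13.8% and 15.4% of all probes were.

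The Lsm proteins are relatives of the Sm proteins, and some of them form rings on U6 RNA or on messages bound for decay. The list was not limited to members of those rings. Of 13 listed genes 12 passed, with 0 higher and 5 lower in Ox-ARP against Ox-total (median -0.30; 13.6% and 13.4% of all probes) and 1 higher and 6 lower in Basal-ARP against Basal-total (median -0.40; 16.7% and 15.2%). In captured RNA Lsm12 alone among these 12 passed the peroxide test, falling by 0.47 ± 0.16 (adjusted p = 0.0377, limma). Over all probes 13.8% were called higher and 15.4% lower there. Of the 8 genes for the cap, export and import of small nuclear RNA 7 passed, with 1 higher and 0 lower with peroxide and 1 higher and 1 lower without, and medians of 0.03 and -0.03, against those same shares. None of these 7 passed in either peroxide comparison. Of the 5 imprinted neighbours of Snrpn, Ube3a and Mkrn3 passed the detection filter, and neither passed a peroxide test. In capture 0 of these 2 were called without peroxide, and with it 0 were called higher and 1 lower. Over all genes the median capture difference was 0.03 with peroxide and 0.01 without, and in total RNA no gene of these 5 lists passed limma's peroxide test.

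**Figure D5:**
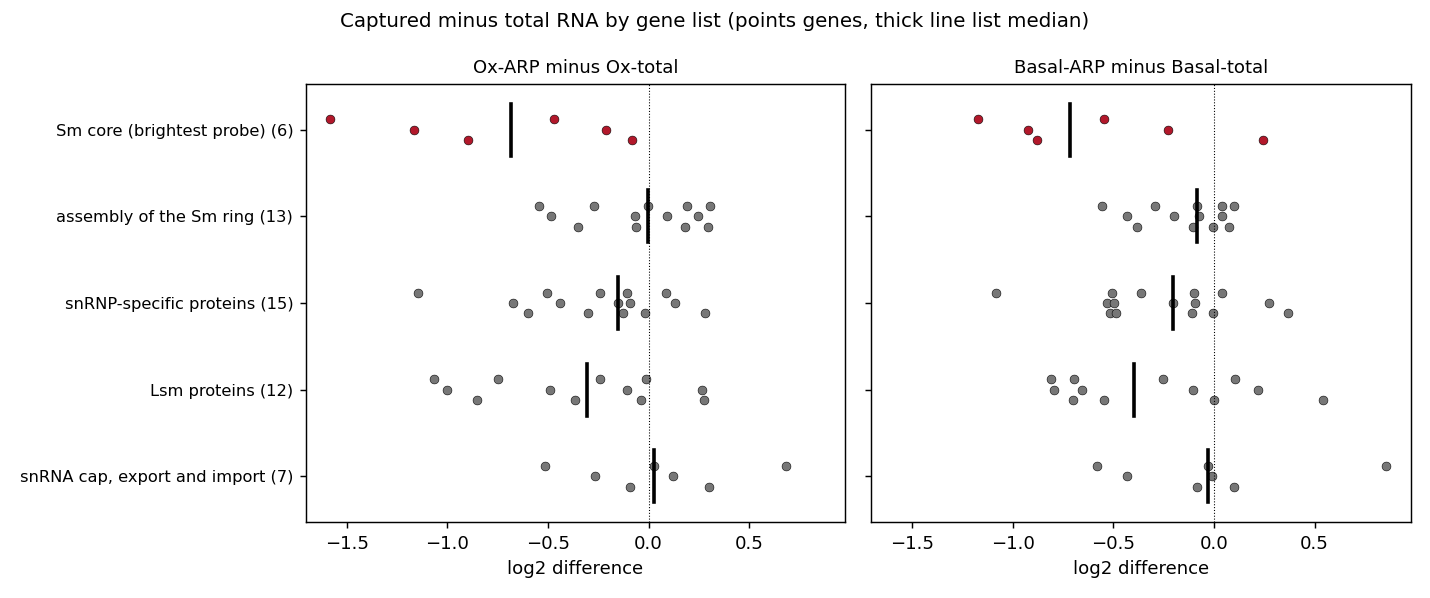
Captured minus total RNA (x axis, log2 difference) in treated cells (left) and untreated cells (right) for the Sm core and 4 lists of related genes (y axis, number of genes in parentheses). Each point is the brightest probe of a gene and each thick line the list's median; the Lsm median is -0.30 with peroxide and -0.40 without, and the assembly genes centre near 0.

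The members' genes differ in genomic span, by the RefSeq table of assembly GRCm38.p6. Snrpd2 spans 3.29 kb, Snrpg 7.36 kb and Snrpb 7.75 kb, within the shortest 25% of genes, Snrpd1 10.4 kb and Snrpd3 17.4 kb within the next, and Snrpn 468 kb within the longest. Across 7462 genes, which are not independent replicates, Spearman's rho between span and capture difference was 0.162 with peroxide and 0.242 without. The median capture difference of those shortest genes was -0.07 with peroxide and -0.13 without, against 0.06 and 0.09 in the longest 25%. Snrpg and Snrpb, with almost equal spans, had capture differences of -1.58 and -0.08 with peroxide, and of -1.17 and 0.25 without. The part of span in the members' differences was not tested.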

How the data were processed

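The 16 arrays were grouped by the labels' titles. The deposited scanner table holds linear bead intensity without normalization. Beside it stands each probe's deposited detection p-value (GenomeStudio 2010.2, per the submitters' processing notes). A deposited table of the authors' processed intensity was tried in its place, floored at 1 and taken to log2. Its columns share a mean of 376, their medians run from 12.3 to 16.3, and how background was removed is not given in the sources used here.

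Intensities were background corrected with normexp (offset 16) from the detection p-values, quantile normalized and taken to log2 in limma 3.58.1 (R 4.3.3). With lmFit and eBayes, 1 model of 4 group means took in all 16 arrays, and p-values were Benjamini-Hochberg adjusted over all 10794 probes kept, with calls at 0.05. The number of arrays limits the precision. Symbols came from the platform annotation (23978 probes with 1 symbol, 1719 with none), and 23962 probes matched the RefSeq table by gene identifier.

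The members and the pathway lists were chosen with earlier results of these data known. Every member probe was named. Of each list, the 2 genes of smallest p in each peroxide comparison and in the difference of capture differences could be named with values; Smn1, Snrnp25 and Prpf31 were chosen after their values were seen. The most similar genes were the 3 with the highest r per member.

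Same-numbered arrays deviated together in every pair of Ox-ARP with Ox-total (r of 0.16 to 0.70) and of Basal-ARP with Basal-total (0.28 to 0.64). They also did in Ox-total with Basal-ARP (0.17 to 0.52), which hold RNA of treated and of untreated cells. In Ox-ARP with Basal-total r ran from -0.11 to 0.36. The same-numbered array was the best match in 13 of 24 pairs. Same-numbered arrays share a chip, so a pairing of samples and the chip cannot be told apart. In each of the 2 peroxide comparisons 1 pair fell under 0.1, at -0.26 in Ox-total with Basal-total and 0.02 in Ox-ARP with Basal-ARP. The pipeline was tested on simulated data. Probe sequences were not used here.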

Additional observations from a re-analysis of the deposited data

Results flagged for a closer look

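One value stood far from its group. Snrpb probe 2 in Basal-ARP replicate 3 had a log2 intensity of 9.09, where the other 3 arrays of the group lay between 9.55 and 9.63. The gap to the nearest array divided by the group's range was 0.849, above Dixon's 95% critical value for 4 samples. It was 1 of 36 groups examined, and chance flags about 1 in 20. Without this array, the difference of Snrpb probe 2 between Ox-ARP and Basal-ARP passed limma's test (adjusted p = 0.0173, against 0.105 with it).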

How the results depend on the processing

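Across 675 values of single probes in the tested comparisons, 612 kept their direction and their side of the threshold, 5 lost the call, 21 gained one and 37 changed sign, none of the last being called in any setting. Of 402 untested values between captured and total RNA, 391 moved by less than 1 SD between replicates, 11 moved further and 4 changed sign. Those 4 were Snrpb with peroxide: probe 1 had 0.06 on chip 1, and probe 2 had -0.06 on chip 2 and -0.0032 and -0.03 without Ox-ARP replicate 1 or 2. Member calls between captured and total RNA are descriptions without a test. In Basal-ARP against Basal-total they were 7, against 4 with the highest-mean probe per gene (6 genes) and 4 on chip 2 alone. They were 6 to 7 leaving out 1 array. In Ox-ARP against Ox-total they were 5, and 5 to 6 leaving out 1 array. In Ox-ARP against Basal-ARP the count of 1 became 0 with no normalization and on chip 2 alone. It became 2 with median scaling, an offset of 50, no background correction, detection on all 16 arrays and the mean of a gene's probes, and 4 with the chip block and with array weights. Leaving out 1 array gave 0 (without Ox-ARP replicate 1 or 2) to 3 (without Basal-ARP replicate 3). With the replicate block, 1 term shared by all 4 groups, the count in Ox-ARP against Basal-ARP was 4. Over all 10794 probes calls in this comparison numbered 4287 with that block, 4077 with the chip block and 3847 with array weights, against 3151. For the difference of capture differences the replicate block gave 1, Snrpg (adjusted p = 0.0446, limma). That count was 0 to 1 leaving out 1 array. The block left the member count at 7 without peroxide and gave 6 with it.

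Signs changed for small uncalled differences. In Ox-total against Basal-total, Snrpd1 probe 1 had 0.0466 with median scaling, 0.0437 with no normalization and 0.0167 with the mean of probes. Snrpd2 had -0.0327 on chip 2, -0.0566 with array weights and -0.0735 to 0.0865 leaving out 1 array. In Ox-ARP against Basal-ARP, median scaling and no normalization gave Snrpb probe 1 0.0051 and 0.058, Snrpd1 probe 1 0.0763 and 0.13, and Snrpd1 probe 2 0.11 and 0.17, the last having 0.093 on chip 2. Leaving out 1 array gave -0.19 to 0.022 and -0.13 to 0.0179 for the Snrpd1 probes, and -0.0321 to 0.28 for Snrpd3. In the difference of capture differences, Snrpd1 probe 1 had 0.0297 with median scaling, 0.0856 with no normalization and 0.14 on chip 2, and -0.10 to 0.11 leaving out 1 array. Snrpd1 probe 2 had 0.01 on chip 2. Snrpd3 had -0.0298 with cyclic loess, -0.0381 on chip 2 and -0.14 to 0.18 leaving out 1 array. The cause was not tested.

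Over all probes, calls in Ox-total against Basal-total numbered 26, against 97 with the replicate block, 75 with the chip block, 103 with array weights, 9 with detection on all 16 arrays, 0 with no normalization and 13 to 17 without some single arrays. For the difference of capture differences they numbered 268, against 1040, 826 and 810 with those blocks and weights, 1 with no normalization and 110 without Ox-total replicate 3. With no normalization the other counts were 715 in place of 2914 for capture with peroxide, 1036 in place of 3441 without it, and 1315 in place of 3151 between captured groups. Chips taken singly also gave fewer calls, 1558 and 705, 1728 and 1259, and 1164 and 1099, from fewer arrays. Snrpn probe 2, at scanner values of 110.8 to 208, lies near background.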
